A study of Mus musculus with 6 samples.

Results

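The genes of 9 progenitor transcription factors were followed: Myb, Gfi1, Runx1, Tal1, Lmo2, Lyl1, Erg, Sox4 and Hhex. They were chosen by name, with earlier results of these data known. They are 9 of the 18193 genes that the arrays measured with a probe set of a single gene symbol. All 24 of their single-symbol probe sets were read, of 34945 such probe sets on the array. Gene expression was measured on 6 Affymetrix arrays, 2 for each of 3 groups of cells grown from the bone marrow of C57BL/6 mice. GM-TNFa-DC are dendritic cells that were grown out of GM-MPP under the myeloid growth factor GM-CSF together with the inflammatory cytokine TNFa. GM-DC are dendritic cells that were grown out of GM-MPP under GM-CSF. GM-MPP are the multipotent progenitors, raised with GM-CSF added to stem cell cytokines, so all 3 groups had received GM-CSF. No genotype other than the strain is given, and neither are the age of the mice, the doses or the time in culture. Whether the arrays numbered 1 and 2 stand for separate cultures or animals is not stated, and p-values therefore measure only the variation among these arrays, which may be technical.

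Blood progenitors are held in their state by a small network of transcription factors. Tal1 and Lyl1 are related basic helix-loop-helix proteins that bind DNA with E-protein partners, and Lmo2 is the LIM-domain adaptor that joins them to GATA factors in a larger complex. Runx1, the DNA-binding subunit of core-binding factor, and Erg, an ETS factor, bind many of the same regulatory elements in progenitor cells. Myb drives the proliferation and the early myeloid genes of progenitors, and Gfi1 is a zinc-finger repressor that is needed for neutrophil development and restrains monocyte genes. Sox4 is an HMG-box factor of progenitors and early lymphocytes, and Hhex is a homeobox repressor of early blood and endothelial cells.

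The promoters of Myb, Gfi1 and Lyl1 are shown first, because these were the genes that passed the test below against GM-MPP, Myb and Gfi1 in both kinds of dendritic cell and Lyl1 in GM-TNFa-DC. Each window runs from 250 bases before to 50 bases after a RefSeq gene start (build GRCm38.p6) and is written 5′ to 3′ along the gene. Capitals mark the letters AACNG on either strand, the core that Myb proteins recognise. Gfi1 has 2 annotated starts.
Myb, chr10:21160935-21161234, minus strand: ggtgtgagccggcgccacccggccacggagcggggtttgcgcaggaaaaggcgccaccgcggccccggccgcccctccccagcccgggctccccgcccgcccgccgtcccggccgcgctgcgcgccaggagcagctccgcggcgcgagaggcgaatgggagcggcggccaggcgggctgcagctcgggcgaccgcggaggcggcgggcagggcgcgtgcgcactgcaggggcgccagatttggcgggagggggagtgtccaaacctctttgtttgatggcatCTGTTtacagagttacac
Gfi1, upstream start, chr5:107725756-107726055, minus strand: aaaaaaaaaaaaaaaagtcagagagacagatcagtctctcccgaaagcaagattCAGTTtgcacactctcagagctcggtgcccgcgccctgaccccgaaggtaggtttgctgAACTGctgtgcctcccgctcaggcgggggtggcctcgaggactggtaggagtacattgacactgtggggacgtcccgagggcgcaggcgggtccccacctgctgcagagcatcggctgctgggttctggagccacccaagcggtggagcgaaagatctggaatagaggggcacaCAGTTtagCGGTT
Gfi1, downstream start, chr5:107724294-107724593, minus strand: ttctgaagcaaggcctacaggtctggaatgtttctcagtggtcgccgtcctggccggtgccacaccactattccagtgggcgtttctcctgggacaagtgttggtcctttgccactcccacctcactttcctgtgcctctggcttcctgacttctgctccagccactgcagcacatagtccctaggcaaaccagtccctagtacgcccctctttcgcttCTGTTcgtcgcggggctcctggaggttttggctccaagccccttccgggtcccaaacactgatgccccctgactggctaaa
Lyl1, chr8:84701207-84701506, plus strand: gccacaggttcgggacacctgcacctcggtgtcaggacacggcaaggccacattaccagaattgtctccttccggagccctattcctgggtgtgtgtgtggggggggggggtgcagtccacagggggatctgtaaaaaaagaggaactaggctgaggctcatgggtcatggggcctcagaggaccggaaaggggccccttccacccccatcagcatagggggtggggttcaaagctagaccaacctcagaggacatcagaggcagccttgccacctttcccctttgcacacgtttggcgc
The core occurred once in the Myb window, at 4 places in the upstream and 1 in the downstream Gfi1 window, and nowhere in the Lyl1 window. Such a short core is common: 80.3% of the 32851 RefSeq promoter windows of this length held it, and so did 10 of the 13 windows of the 9 genes. Of the same 13 windows, 10 held AATC, the core of Gfi1 sites, against 73.1% of all windows. TGTGGT, read by Runx1, was in 1 of them, the upstream Runx1 window with 2 places, against 16.8% of all windows. CAGATG, an E-box that Tal1 complexes prefer, was in 2 of 13 against 17.2%, AGATAA, read by GATA factors, in 2 of 13 against 11.2%, GGAAGT, read by ETS factors, in 0 of 13 against 23.8%, and AACAAT, read by Sox factors, in 1 of 13 against 10.7%. All were searched on both strands. A match shows that the letters are present and nothing about binding. The Myb window had a G and C content of 75.0% and the Lyl1 window 60.0%, and both Gfi1 windows had 58.0%, against a median of 52.7% over all windows.

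Values are log2 expression levels, on which 1 unit is a doubling, and the array medians lay between 4.67 and 4.77. Levels near the median are near background, where changes are compressed and a ratio is only approximate. These are bulk samples, in which fewer cells of a type and less RNA per cell cannot be told apart. Each gene was represented by its brightest probe set, and differences were tested with limma over all 18193 genes with a threshold of 0.05 on the Benjamini-Hochberg adjusted p. Errors after ± are standard errors of a log2 change. The number of arrays, 2 a group, limits the precision.

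**Figure D1:**
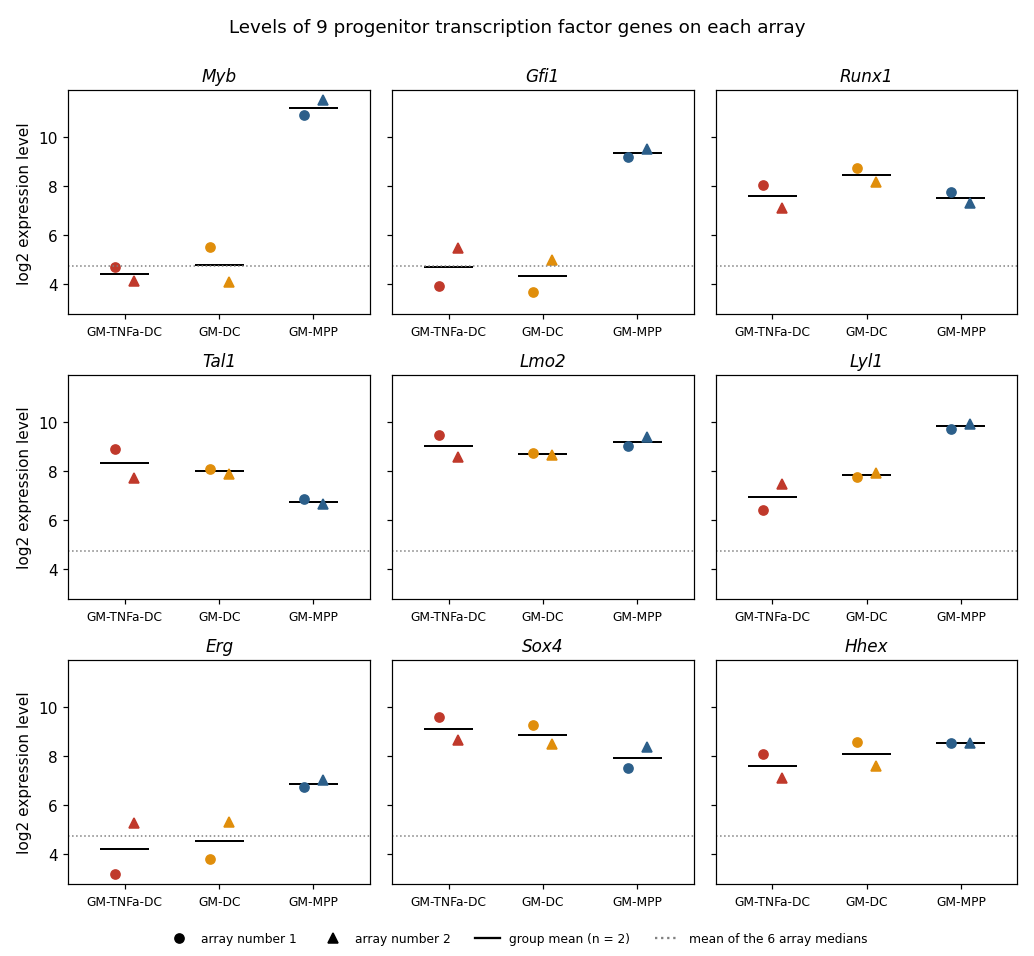
log2 expression level (vertical axis) of the 9 genes on each of the 6 arrays, grouped by cell type (horizontal axis), with circles for number-1 arrays, triangles for number-2 arrays, bars for group means and a dotted line at the mean of the array medians. Myb and Gfi1 lie between 3.68 and 5.50 on the 4 dendritic cell arrays and above 9 on both GM-MPP arrays, while Lmo2 lies between 8.57 and 9.48 on all 6.

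Myb, the transcription factor that keeps progenitors dividing, showed the largest difference of the 9 genes. Its level was 4.67 and 4.11 in GM-TNFa-DC and 5.50 and 4.07 in GM-DC, against 10.89 and 11.51 in GM-MPP. All 4 dendritic cell arrays thus lay near the array median, and both progenitor arrays were far above it. Myb fell by 6.81 ± 0.52 on the log2 scale in GM-TNFa-DC against GM-MPP (95% interval -8.11 to -5.51, adjusted p = 0.00507) and by 6.42 ± 0.52 in GM-DC against GM-MPP (95% interval -7.72 to -5.12, adjusted p = 0.00616). Only 4 of the 18193 genes had a more negative change in the first of these comparisons and 3 in the second. On the number-1 arrays alone the Myb change was -6.23 and -5.39, and on the number-2 arrays -7.40 and -7.45, for GM-TNFa-DC and GM-DC against GM-MPP in each case.

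Myb has 3 probe sets, and the test over all 45037 probe sets that are not controls called each of them lower in both comparisons with GM-MPP. The background is 2.78% of probe sets called lower in GM-TNFa-DC and 1.63% in GM-DC. The brightest, 1421317_x_at, carries the suffix Affymetrix gives to probes that can also match other transcripts, so the others were read beside it. Probe set 1450194_a_at was at 3.54 and 3.32 in GM-TNFa-DC and at 3.86 and 3.10 in GM-DC, against 9.42 and 10.08 in GM-MPP. Probe set 1422734_a_at was at 2.61 and 2.40 in GM-TNFa-DC and at 2.82 and 2.66 in GM-DC, against 7.90 and 8.18 in GM-MPP. All 3 thus separated the progenitors from both kinds of dendritic cell, with changes between -6.81 and -5.54 in GM-TNFa-DC and between -6.42 and -5.30 in GM-DC.

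Gfi1, the zinc-finger repressor, followed. It was at 3.89 and 5.44 in GM-TNFa-DC and at 3.68 and 4.95 in GM-DC, against 9.19 and 9.51 in GM-MPP, and has 1 probe set. The groups did not overlap, and the number-2 array was the higher one in each dendritic cell group. Gfi1 fell by 4.68 ± 0.63 in GM-TNFa-DC against GM-MPP (adjusted p = 0.0196) and by 5.03 ± 0.63 in GM-DC against GM-MPP (adjusted p = 0.0197). Within numbers its change was -5.30 and -4.06 in GM-TNFa-DC, and -5.51 and -4.55 in GM-DC, on the number-1 and the number-2 arrays.

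The calls for Myb and Gfi1 rested on both GM-MPP arrays. With only GM-MPP 2 as the progenitor sample, the adjusted p in GM-DC was 0.0570 for Myb and 0.138 for Gfi1, and with only GM-MPP 1 it was 0.0721 and 0.138; in GM-TNFa-DC these values were 0.0507 and 0.135, and 0.0598 and 0.128. Gfi1 also missed the threshold in GM-DC without GM-DC 1 (adjusted p = 0.0842) and in GM-TNFa-DC without GM-TNFa-DC 1 (adjusted p = 0.0535), and the changes of both genes stayed negative in each of these fits.

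**Figure D2:**
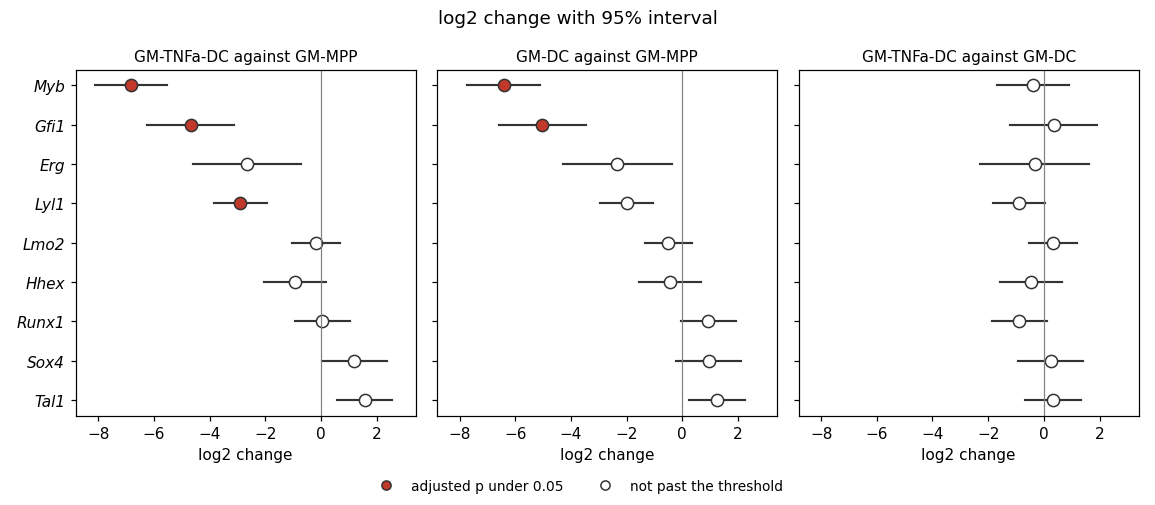
log2 change (horizontal axis) of each gene (vertical axis) with its 95% interval in the 3 comparisons, filled where the adjusted p is under 0.05. Myb and Gfi1 are filled in both comparisons with GM-MPP and Lyl1 only in GM-TNFa-DC against GM-MPP, and no gene is filled in GM-TNFa-DC against GM-DC.

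The 3 genes of the Tal1 complex did not move alike. Lyl1, the relative of Tal1, was at 6.40 and 7.48 in GM-TNFa-DC and at 7.73 and 7.92 in GM-DC, against 9.74 and 9.93 in GM-MPP. It fell by 2.89 ± 0.38 in GM-TNFa-DC against GM-MPP (adjusted p = 0.0185). In GM-DC against GM-MPP its change was -2.004 ± 0.38, nearly the same on either array number, and the adjusted p of 0.0501 just missed the threshold. That call depended on the settings: 8 of 16 alternatives put it past the threshold, and the adjusted p ranged from 0.0236 to 0.251. The call in GM-TNFa-DC was lost without either GM-MPP array (adjusted p = 0.130 and 0.124).

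Tal1, a master regulator of early blood development, went the other way on average. It was at 8.89 and 7.72 in GM-TNFa-DC and at 8.07 and 7.88 in GM-DC, against 6.84 and 6.63 in GM-MPP. Every dendritic cell array was above both progenitor arrays, but the change of 1.57 ± 0.40 in GM-TNFa-DC (adjusted p = 0.0816, 95% interval 0.57 to 2.57) and of 1.24 ± 0.40 in GM-DC (adjusted p = 0.157, 95% interval 0.24 to 2.24) did not pass. The intervals for Lyl1 ran from -3.84 to -1.95 in GM-TNFa-DC and from -2.95 to -1.06 in GM-DC, so they did not overlap those of Tal1 in either comparison. Without GM-TNFa-DC 2 the Tal1 change in GM-TNFa-DC was 2.15 and passed (adjusted p = 0.0338), while without GM-TNFa-DC 1 it was 0.98 and did not (adjusted p = 0.140).

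Lmo2, the adaptor between these proteins, was at 9.48 and 8.57 in GM-TNFa-DC and at 8.73 and 8.66 in GM-DC, against 9.03 and 9.38 in GM-MPP. GM-TNFa-DC held both the highest and a low value, so it overlapped GM-MPP, while both GM-DC arrays lay a little below GM-MPP. The changes were -0.18 ± 0.34 in GM-TNFa-DC (adjusted p = 0.782, 95% interval -1.04 to 0.68) and -0.50 ± 0.34 in GM-DC (adjusted p = 0.466, 95% interval -1.36 to 0.35). On every array Lmo2 was brighter than at least 90.2% of all probe sets.

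Erg, the ETS factor, was at 3.16 and 5.23 in GM-TNFa-DC and at 3.76 and 5.29 in GM-DC, against 6.71 and 7.00 in GM-MPP. Both dendritic cell groups lay below the progenitors, and within each the number-2 array was higher. Its change was -2.66 ± 0.78 in GM-TNFa-DC (adjusted p = 0.110) and -2.33 ± 0.78 in GM-DC (adjusted p = 0.169), and neither passed. The second Erg probe set, 1425370_a_at, was at 4.85 and 5.15 in GM-TNFa-DC and at 4.66 and 4.83 in GM-DC, against 5.33 and 5.09 in GM-MPP, all near the array median, with changes of -0.21 and -0.46. The size of the Erg difference thus depended on the probe set.

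Runx1, the core-binding factor subunit, gave different directions on different probe sets. Its brightest, 1422864_at, was at 8.04 and 7.11 in GM-TNFa-DC and at 8.75 and 8.18 in GM-DC, against 7.75 and 7.30 in GM-MPP. GM-DC lay above GM-MPP on it, with a change of 0.94 ± 0.40 (adjusted p = 0.252), and GM-TNFa-DC overlapped GM-MPP, with 0.05 ± 0.40 (adjusted p = 0.955). Of the 6 Runx1 probe sets, 4 were higher and 2 lower in GM-DC against GM-MPP, each with arrays that did not overlap, against 27.0% and 24.9% of all probe sets, and 0 were called. Probe set 1427650_a_at was at 6.40 and 6.83 in GM-TNFa-DC and at 6.65 and 6.65 in GM-DC, against 7.62 and 7.04 in GM-MPP, a change of -0.71 and -0.68. Probe set 1440878_at was at 7.76 and 7.73 in GM-TNFa-DC and at 8.46 and 7.85 in GM-DC, against 7.30 and 7.11 in GM-MPP, a change of 0.54 and 0.95. Over all 6 probe sets the changes ran from -0.71 to 0.54 in GM-TNFa-DC and from -0.68 to 0.95 in GM-DC.

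**Figure D3:**
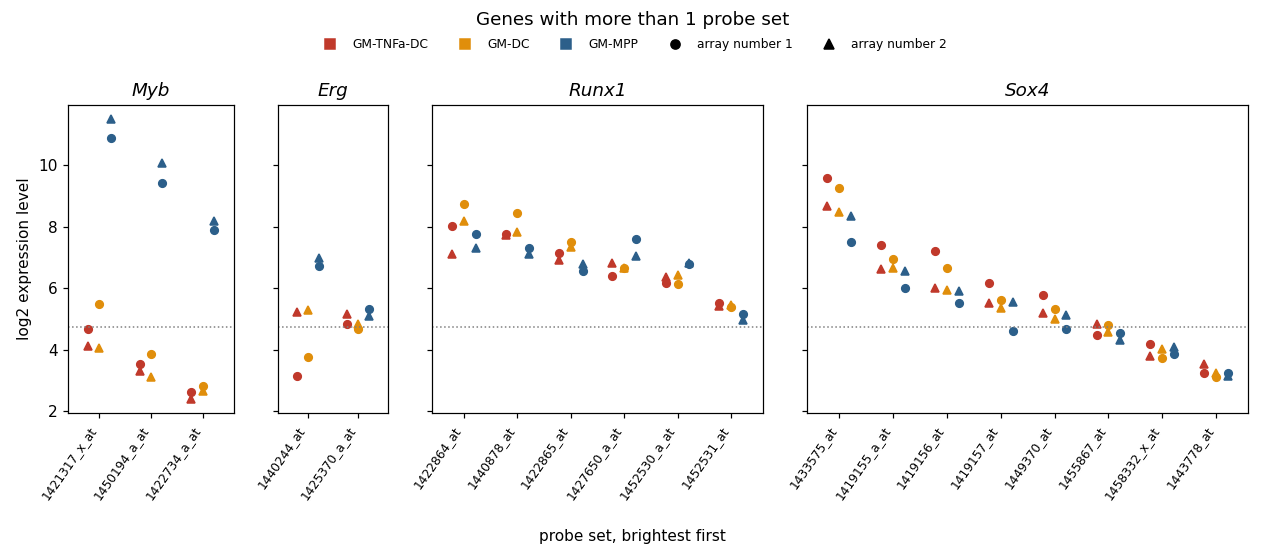
log2 expression level (vertical axis) on each probe set (horizontal axis, brightest first) of the 4 genes with more than 1 probe set, by group (colour) and array number (shape), with a dotted line at the mean of the array medians. All 3 Myb probe sets part GM-MPP from the dendritic cells, 4 of 6 Runx1 probe sets are higher and 2 lower in GM-DC than in GM-MPP, and 2 of 8 Sox4 probe sets are below the array median throughout.

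Sox4, the HMG-box factor, was at 9.57 and 8.67 in GM-TNFa-DC and at 9.25 and 8.50 in GM-DC, against 7.51 and 8.35 in GM-MPP. All 4 dendritic cell arrays were above both GM-MPP arrays, though GM-DC 2 exceeded GM-MPP 2 by only 0.14. The change was 1.19 ± 0.47 in GM-TNFa-DC (adjusted p = 0.192) and 0.94 ± 0.47 in GM-DC (adjusted p = 0.320), and neither passed. Most of it lay on the number-1 arrays, at 2.07 and 1.74, against 0.32 and 0.14 on number 2. Of its 8 probe sets 2 were under the array median on all 6 arrays, and the changes of the 8 ran from 0.02 to 1.19 in GM-TNFa-DC and from -0.10 to 0.94 in GM-DC, with 0 called. Of all probe sets, 1.67% were called higher in GM-TNFa-DC and 1.15% in GM-DC.

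Hhex, the homeobox repressor, was at 8.08 and 7.11 in GM-TNFa-DC and at 8.55 and 7.58 in GM-DC, against 8.52 and 8.51 in GM-MPP. GM-TNFa-DC lay below GM-MPP, and GM-DC overlapped it. The change was -0.92 ± 0.45 in GM-TNFa-DC (adjusted p = 0.270, 95% interval -2.03 to 0.19) and -0.45 ± 0.45 in GM-DC (adjusted p = 0.624, 95% interval -1.56 to 0.67).

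Counted together, 3 of the 9 genes were called lower and 0 higher in GM-TNFa-DC against GM-MPP, where 4.26% of all genes were called lower and 2.77% higher. In GM-DC against GM-MPP, 2 were called lower and 0 higher, where 2.63% of all genes were called lower and 1.87% higher. Arrays did not overlap for 5 genes lower and 2 higher in GM-TNFa-DC, against 26.1% and 31.6% of all genes, and for 5 lower and 3 higher in GM-DC, against 27.0% and 28.3%. The median change of the 9 was -0.92 in GM-TNFa-DC and -0.50 in GM-DC, against 0.05 and 0.02 over all genes. These comparisons share the GM-MPP arrays and are not independent of each other. Without either GM-MPP array 0 of the 9 were called in both comparisons, while 0.418% and 0.280% of all genes in GM-TNFa-DC and 0.313% and 0.165% in GM-DC were still called lower.

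The order of the group means differed between genes. GM-MPP was highest for Myb, Gfi1, Lyl1, Erg, Lmo2 and Hhex, GM-TNFa-DC was highest for Tal1 and Sox4, and GM-DC was highest for Runx1. GM-TNFa-DC and GM-DC were neighbours in that order for all 9 genes, which does not make their levels alike. For Runx1 the GM-TNFa-DC mean differed from GM-MPP by 0.05 and from GM-DC by -0.89. For Lmo2 these differences were -0.18 and 0.32. For Hhex the GM-DC mean lay about as far from GM-MPP as from GM-TNFa-DC. The share of all genes with such neighbours was not counted. The difference between GM-TNFa-DC and GM-DC passed the threshold for 0 of the 9.

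Setting GM-TNFa-DC against GM-DC asks what TNFa did to these genes. No gene of the 9 passed, and neither did any of the 18193 (lowest adjusted p = 1.00, 410 genes at an unadjusted p under 0.05, limma), so the background is 0%. The largest differences were in Lyl1 (-0.89 ± 0.38, 95% interval -1.84 to 0.05) and Runx1 (-0.89 ± 0.40, 95% interval -1.88 to 0.10), both lower with TNFa on both numbers. The Runx1 value rests on its brightest probe set: the other 5 gave changes from -0.41 to 0.07, and the mean of all 6 probe sets gave -0.28. For these 2 genes alone the arrays did not overlap, while 10.6% of all genes were lower without overlap. Intervals for the other 7 genes covered both directions: Myb from -1.69 to 0.91, Gfi1 from -1.21 to 1.91, Hhex from -1.59 to 0.64, Erg from -2.28 to 1.62, Lmo2 from -0.53 to 1.18, Tal1 from -0.67 to 1.33 and Sox4 from -0.92 to 1.41. Changes within these intervals are not excluded by the data.

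The array number parted the dendritic cell arrays more than TNFa did for some of the genes. All 9 genes differed between number 2 and number 1 in the same direction in GM-TNFa-DC and GM-DC, against 69.6% of all genes. Erg was higher on number 2 by 2.08 in GM-TNFa-DC and by 1.52 in GM-DC, Gfi1 by 1.55 and 1.28, and Lyl1 by 1.08 and 0.19. The other 6 were lower on number 2, with differences of -0.97 in both groups for Hhex and of -0.55 in GM-TNFa-DC and -1.43 in GM-DC for Myb. In the 4 genes Gfi1, Erg, Sox4 and Hhex both number differences were larger in size than both TNFa differences, which 30.8% of all genes share. The labels do not say what the number stands for.

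**Figure D4:**
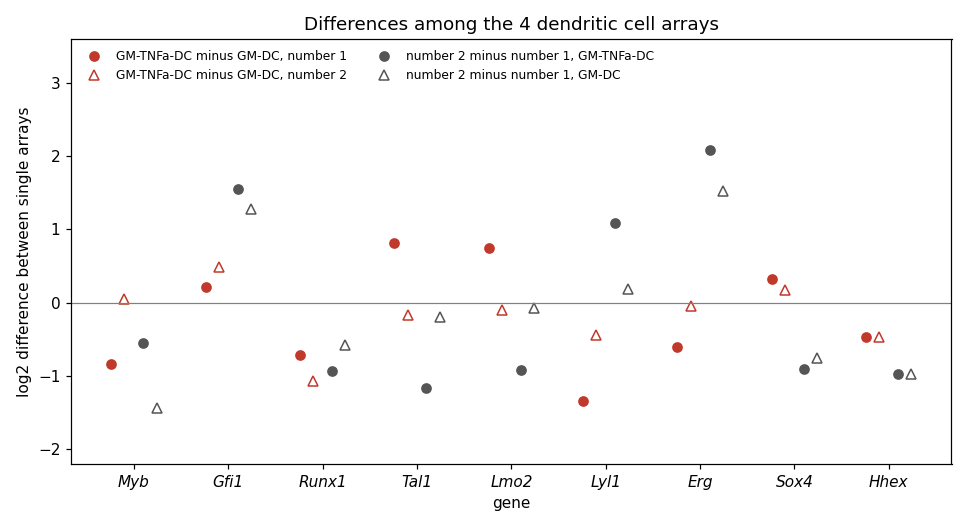
log2 difference between single arrays (vertical axis) for each gene (horizontal axis): GM-TNFa-DC minus GM-DC within each array number in red, and number 2 minus number 1 within each dendritic cell group in grey. The grey points of a gene lie on the same side of 0 for all 9 genes, and the red points do so for 6 of 9.

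Genes that work with these factors were read from lists, which were also chosen with earlier results of these data known. The counts of called members are to be read against all genes, of which 4.26% were called lower and 2.77% higher in GM-TNFa-DC against GM-MPP, and 2.63% lower and 1.87% higher in GM-DC against GM-MPP. Among 8 measured targets of Myb, 5 were called lower and 0 higher in GM-TNFa-DC against GM-MPP, and 4 lower and 0 higher in GM-DC; the median change was -2.13 and -1.61. The granule enzyme genes Mpo (-8.60 ± 0.55 and -7.94 ± 0.55) and Elane (-6.75 ± 0.31 and -6.35 ± 0.31), the progenitor sialomucin gene Cd34 (-3.98 ± 0.29 and -3.80 ± 0.29) and the growth regulator Myc (-2.99 ± 0.31 and -2.22 ± 0.31) fell in GM-TNFa-DC and GM-DC. Gata2, a GATA factor of stem cells, fell in GM-TNFa-DC (-1.28 ± 0.22, adjusted p = 0.0308) and missed the threshold in GM-DC (-1.01 ± 0.22, adjusted p = 0.0660). The remaining targets, named after their values were seen, were Kit, Bcl2 and Hspa8, called in neither comparison. Kit, also in the progenitor surface list below, changed by -0.11 in GM-TNFa-DC and 0.17 in GM-DC. It was at 8.66 and 5.43 in GM-TNFa-DC and at 8.997 and 5.65 in GM-DC, against 7.09 and 7.22 in GM-MPP. Bcl2 changed by -0.45 in GM-TNFa-DC and 0.24 in GM-DC, and Hspa8 by -0.21 and -0.11. Of 7 genes of the Myb family and its co-activators, Mybl2, the relative of Myb in dividing cells, was the only one called (-3.56 ± 0.43 and -3.08 ± 0.43, both lower). Mpo and Elane are also members of the neutrophil granule list below.

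Among 11 measured genes that Gfi1 is known to repress, 4 were called higher and 3 lower in GM-TNFa-DC, and 3 higher and 2 lower in GM-DC, with median changes of 1.76 and 1.31. Of all genes, 2.77% were called higher and 4.26% lower in GM-TNFa-DC, and 1.87% higher and 2.63% lower in GM-DC. Egr2, a zinc-finger factor of macrophages, rose by 5.52 ± 0.56 in GM-TNFa-DC and 5.57 ± 0.56 in GM-DC, and the cell cycle inhibitor gene Cdkn1a rose by 2.79 ± 0.34 and 2.26 ± 0.34. Nab2, a partner of Egr factors that was named after its values were seen, was the other one called higher in both. Irf8, a factor of dendritic cells and monocytes, rose in GM-TNFa-DC (3.64 ± 0.69, adjusted p = 0.0411) and did not pass in GM-DC (3.11 ± 0.69, adjusted p = 0.0705). The homeobox genes Hoxa9 (-4.29 ± 0.28 and -4.12 ± 0.28) and Meis1 (-2.03 ± 0.27 and -1.59 ± 0.27), which work together in stem cells, fell in both. Id1, an inhibitor of helix-loop-helix factors, fell in GM-TNFa-DC (-3.22 ± 0.44, adjusted p = 0.0200) and did not pass in GM-DC (-1.83 ± 0.44, adjusted p = 0.0819). Of 8 genes of the Gfi1 family and its co-repressors, the histone deacetylase gene Hdac2 was the only one called (-1.13 ± 0.19 and -1.15 ± 0.19, both lower).

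Partners in the Tal1 complex and the Id inhibitors had 4 of 15 members lower and 0 higher in GM-TNFa-DC, and 1 lower and 0 higher in GM-DC, with medians of -0.35 and -0.50. Of all genes, 4.26% were called lower in GM-TNFa-DC and 2.63% in GM-DC, and the single call among 15 in GM-DC is near that share. The DNA-binding cofactor gene Ssbp2 fell in both (-1.63 ± 0.28 and -1.76 ± 0.28), and the others in GM-TNFa-DC were Gata2, Id1 and Gata1, the last named after its values were seen. Gata1 was below the array median throughout, at 3.39 and 3.58 in GM-TNFa-DC against 4.20 and 4.31 in GM-MPP. Core-binding factor partners (3 measured) and Sox relatives (6) had 0 called in both comparisons with GM-MPP. Of 9 ETS relatives, Ets2 rose in GM-TNFa-DC (1.93 ± 0.30, adjusted p = 0.0257) and was 0.82 ± 0.30 in GM-DC (adjusted p = 0.195). Of 14 other stem and progenitor factors 3 were lower and 0 higher in GM-TNFa-DC, and 3 lower and 1 higher in GM-DC, where Ikzf2, an Ikaros relative, rose by 1.64 ± 0.26. The 3 lower ones were Hoxa9, Myc and Meis1 in both comparisons, all counted already in the lists above. The shares of all genes called higher were 2.77% in GM-TNFa-DC and 1.87% in GM-DC, and single calls in lists of this size are near them. In GM-TNFa-DC against GM-DC 0 members of any of the 17 lists passed.

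Markers of the labelled and of other cell types were read beside these results, as medians of log2 levels on each array. Calls among them stand against 4.26% of all genes called lower and 2.77% higher in GM-TNFa-DC, and 2.63% lower and 1.87% higher in GM-DC, so that 1 call in a list of about 10 is near the background. The 9 dendritic cell markers were at 11.87 and 9.91 in GM-TNFa-DC and at 11.52 and 9.59 in GM-DC, against 4.47 and 4.49 in GM-MPP, and 7 rose and 1, Flt3, fell in each comparison. The 7 measured progenitor surface markers were at 7.01 and 5.79 in GM-TNFa-DC and at 6.42 and 5.65 in GM-DC, against 7.09 and 7.38 in GM-MPP, with 2 called lower in each comparison. These 2 were Cd34, counted above as a Myb target, and Flt3, which is also in the dendritic cell list. Members of the progenitor list went both ways: the means of 2 of the 7 were higher in GM-TNFa-DC and of 4 in GM-DC, and the median change was -0.22 and 0.17. On the number-1 arrays that median was -0.15 in GM-TNFa-DC and 0.86 in GM-DC, and on the number-2 arrays -1.24 and -0.88. The 10 neutrophil granule markers, like Myb and Gfi1, were lower in both kinds of dendritic cell than in GM-MPP. They were at 6.26 and 5.69 in GM-TNFa-DC and 7.37 and 5.59 in GM-DC, against 12.47 and 12.78 in GM-MPP. Of the 10, 8 were called lower in GM-TNFa-DC and 6 in GM-DC. Within each dendritic cell group their median was lower on number 2, where Gfi1 was higher. The 11 measured cell cycle genes were at 6.94 and 8.45 in GM-TNFa-DC and 7.30 and 9.04 in GM-DC, against 10.41 and 9.91 in GM-MPP, with 2 called lower in GM-TNFa-DC and 1 in GM-DC. The means of all 11 were lower in both comparisons. Their median change was -2.46 in GM-TNFa-DC and -2.01 in GM-DC, against 0.05 and 0.02 over all genes. The part of these cells and of division in the Myb and Gfi1 results was not tested.

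The 10 measured erythroid and megakaryocyte markers belong to cells in which Tal1, Lmo2 and Erg are also active. Their medians were 5.02 and 5.83 in GM-TNFa-DC and 5.05 and 5.67 in GM-DC, against 6.14 and 6.20 in GM-MPP, with 2 called lower in each comparison. The members went both ways: the means of 5 of the 10 were higher in GM-TNFa-DC and of 3 in GM-DC. Pf4, named after its values were seen, was at 8.88 and 12.81 in GM-TNFa-DC and at 6.23 and 12.79 in GM-DC, against 9.08 and 10.55 in GM-MPP. Ppbp, Car2 and Gp9 were named in the same way. Ppbp was also lower on number 1 in both dendritic cell groups. Its mean change was -3.101 ± 2.67 in GM-TNFa-DC and -3.031 ± 2.67 in GM-DC. Car2 was at 11.15 and 7.63 in GM-TNFa-DC and at 9.25 and 6.93 in GM-DC, against 8.08 and 7.12 in GM-MPP. Gp9 and Itga2b were lower on every dendritic cell array than on both GM-MPP arrays. The 6 measured mast cell and basophil markers were at 4.76 and 5.19 in GM-TNFa-DC and 5.12 and 5.03 in GM-DC, against 7.53 and 7.73 in GM-MPP, with 3 called lower in GM-TNFa-DC and 2 in GM-DC, against 4.26% and 2.63% of all genes. The medians of the 10 endothelial and stromal markers lay between 4.30 and 4.43 on the 6 arrays, with 0 called. The endothelial genes Cdh5 (3.54 to 4.07) and Tek (2.46 to 2.63) were below the array median on each. Other members, named after their values were seen, were brighter: Vwf lay between 7.01 and 9.61 on the 6 arrays. Kdr was at 6.09 and 7.43 in GM-TNFa-DC and at 6.29 and 7.50 in GM-DC, against 5.05 and 4.97 in GM-MPP. The medians of the 9 measured lymphoid markers lay between 3.73 and 4.68 on the 6 arrays, with 1 called lower in each comparison.

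The genes whose pattern over the 6 arrays was most like that of Myb or Gfi1 were found by the root mean square difference after each gene was centred on its own mean. For Myb these were Ms4a3, a membrane protein gene of granulocyte progenitors (0.38), Pglyrp1, an antibacterial granule protein gene (0.39), Elane (0.42) and Ctsg, the cathepsin G gene (0.51). Ms4a3 was at 5.31 and 4.87 in GM-TNFa-DC and at 6.23 and 4.78 in GM-DC, against 12.64 and 12.31 in GM-MPP. For Gfi1 they were Trem3, a receptor of myeloid cells (0.36), Nt5dc2 (0.42), Ces2g, a carboxylesterase gene (0.563), and Cdca7, a gene of dividing cells (0.564). Trem3 was at 5.62 and 7.16 in GM-TNFa-DC and at 6.05 and 6.97 in GM-DC, against 10.53 and 10.87 in GM-MPP. It shared with Gfi1 the higher number-2 array in both dendritic cell groups, which its choice by likeness over these same arrays favours. Among the 9 genes themselves, Myb differed least from Gfi1 (1.33), and Gfi1 differed least from Erg (1.16) and Lyl1 (1.29).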

How the data were processed

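The deposited table holds log2 values for 45101 probe sets on 6 arrays, made by the authors with RMA (background correction, quantile normalization and probe set summary) per the submitters' processing notes and with Bioconductor per the labels. The log2 scale was inferred from the range of 1.89 to 14.4. The RMA version is not given in the sources used here. Per the labels' protocols, 1 microgram of total RNA was labelled for each array.

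Symbols came from the platform annotation, updated through Entrez identifiers to a RefSeq table of GRCm38.p6. Each gene was read from the brightest of its single-symbol probe sets, by the mean over the 6 arrays. limma 3.58.1 in R 4.3.3 (lmFit, eBayes with trend, 3 groups sharing 1 spread, 3 residual degrees of freedom) tested the 18193 genes, with Benjamini-Hochberg adjustment and a threshold of 0.05, and the 45037 probe sets that are not controls in the same way. It was tested on simulated data with independent noise on each array. There it called 18% to 26% of 2-fold and 64% to 78% of 4-fold changes over the 3 comparisons. In the deposited data, same-numbered dendritic cell arrays deviated together (correlation 0.806), which the simulation left out. No detection call was used, so genes near background, whose changes are compressed, were tested too.

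The 9 genes and the 17 lists (162 entries, 9 of them not analysed here) were chosen with earlier results of these data known. Named besides the 9 were up to 3 called members of a list with the largest change and the 4 genes nearest in pattern to Myb and Gfi1. Number-1 deviations correlated across genes at 0.806 between the dendritic cell groups, and at 0.105 and 0.0719 between GM-MPP and GM-DC or GM-TNFa-DC; with 2 numbers this does not establish pairing. Python 3.11.15 and matplotlib 3.10.9 made tables and plots.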

Additional observations from a re-analysis of the deposited data

How the results depend on the processing

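Results were recomputed under 16 alternatives, of which the replicate block on only the 4 arrays compared was chosen after seeing the data. Myb and Gfi1 kept a negative change against GM-MPP under every one of them, and their calls were lost only where an array was left out. Of 429 alternative values for the 9 genes, 388 kept their direction and their side of the threshold. For Lyl1 in GM-DC against GM-MPP, the adjusted p of 0.0501 came under the threshold with median centring (change -2.06), and at an unchanged -2.004 without dim genes, without the intensity trend, with a robust prior, with only the 4 arrays compared and with the replicate block. With the replicate block 4 genes were called in GM-DC against GM-MPP (where 4.67% of all genes were called lower) and 5 in GM-TNFa-DC against GM-MPP (6.65% lower, 4.67% higher). Erg was added in both (-2.33 and -2.66), and Tal1 in GM-TNFa-DC (1.57). On only 4 arrays with that block, Lyl1 in GM-TNFa-DC (-2.89) was no longer called. Runx1 in GM-TNFa-DC turned to -0.024 with median centring. Erg was not tested without dim genes, which kept 8 of the 9. The causes were not tested.

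With each array left out in turn, the lone array being assumed to vary like the other groups, the called genes numbered 0 to 3 in GM-DC against GM-MPP and 0 to 4 in GM-TNFa-DC against GM-MPP. In GM-DC against GM-MPP the change ranged from -7.14 to -5.70 for Myb, -5.67 to -4.39 for Gfi1, -2.10 to -1.91 for Lyl1 and -0.93 to 0.038 for Hhex. In GM-TNFa-DC against GM-MPP it ranged from -7.12 to -6.50 for Myb, -5.45 to -3.90 for Gfi1, -3.44 to -2.35 for Lyl1, 0.98 to 2.15 for Tal1, -0.42 to 0.51 for Runx1 and -0.64 to 0.28 for Lmo2. In GM-TNFa-DC against GM-DC it ranged from -1.11 to 0.32 for Myb, -0.42 to 1.13 for Gfi1, -0.26 to 0.91 for Tal1, -0.13 to 0.78 for Lmo2, -1.37 to 0.71 for Erg, -0.21 to 0.70 for Sox4 and -0.96 to 0.013 for Hhex. Of the other named genes, 34 were called in GM-TNFa-DC and 28 in GM-DC against GM-MPP. Their choice as called list members or as genes like Myb or Gfi1 favours such calls. Of all genes, 4.26% were called lower and 2.77% higher in GM-TNFa-DC, and 2.63% lower and 1.87% higher in GM-DC. Most calls of the named genes were lost where a GM-MPP array was left out, and the share of all genes called fell there too.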
